A study of Mus musculus with 21 samples.

Results

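Prostaglandins and leukotrienes are signalling lipids made from arachidonic acid, and 10 genes that make or break them down were followed by RNA sequencing in mouse lung and mouse lung tumours. They were chosen by name as Ptgs1, Ptgs2, Ptges, Ptgds, Ptgis, Hpgd, Alox5, Alox5ap, Ltc4s and Alox15, so 10 of the 38924 gene symbols in the deposited count table. Of the 10, 9 had enough counts to be tested, among 15770 tested genes in all. Ptgds did not, and its values are given separately.

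All samples came from female mice of strain A/J at 22 weeks, with 3 libraries in each of 7 groups. The groups were NNK_LPS_Sil_I3C, NNK_LPS_I3C, NNK_LPS_Sil, NNK_LPS, NNK, LPS and Control. NNK is a nicotine-derived tobacco carcinogen, injected 1 time into the peritoneum at 100 mg/kg in saline. LPS, a bacterial cell wall product that inflames the airways, was given into the nose every week, at 5 µg in 50 µL for each mouse, from 1 week after NNK. The plant compounds silibinin (Sil) and indole-3-carbinol (I3C), tested against lung tumours, were fed at 20 µmol/g diet each. Every NNK group was sampled as tumours cut out of the lung, with 3 mice pooled in a group, whereas LPS and Control were sampled as normal lung, and NNK and tumour tissue cannot be told apart. It is not stated whether libraries of 1 group were separate mice, and p-values measure only the spread between these libraries. A number after a group name is the replicate number of the sample descriptions, not the number at the end of its title.

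Arachidonic acid is freed from membranes by phospholipases and then taken by competing enzymes. The cyclooxygenases Ptgs1, present in many resting cells, and Ptgs2, induced by inflammatory signals, turn it into prostaglandin H2. Ptges converts that intermediate into prostaglandin E2, Ptgds into prostaglandin D2 and Ptgis into prostacyclin, and Hpgd starts the breakdown of prostaglandins, for which the lung is a main site. On the other branch, 5-lipoxygenase (Alox5), with its membrane partner Alox5ap, makes leukotriene A4, from which Ltc4s makes leukotriene C4. Alox15 is the mouse 12/15-lipoxygenase, known from macrophages and eosinophils.

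Levels are given in CPM, counts relative to the scaled library size, as mean ± SD with n = 3. Fold changes are on the log2 scale, with the standard error (SE) and the p-value of edgeR's quasi-likelihood test after Benjamini-Hochberg adjustment over all tested genes. A change was called at an adjusted p under 0.05. Whether the libraries of 2 groups overlapped is given as description only. The share of all tested genes without overlap was not computed, so these statements have no background beside them. Library totals were 13.3 to 25.3 M counts. The lung markers Sftpc, Ager and Scgb1a1 were abundant in every library, with at least 6208 CPM of Sftpc, 2014 CPM of Ager and 10700 CPM of Scgb1a1. The libraries split into 3 sets, not named in the labels, by how many mt-Atp8 counts they had per mt-Atp6 count. The first set, at 0.0206 to 0.0236, held Control, NNK, LPS 1 and LPS 2. The middle set, at 0.0782 to 0.0876, held LPS 3, NNK_LPS, NNK_LPS_Sil and NNK_LPS_I3C 1, and the last set, at 0.117 to 0.135, held the other 5 libraries. NNK_LPS thus shared no set with NNK, with Control or with NNK_LPS_Sil_I3C, and set and group cannot be told apart there beyond what the LPS and NNK_LPS_I3C libraries, which span sets, allow.

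Ptgs2 and Ptges, the inducible pair that leads to prostaglandin E2, had the largest rises of the 10 genes in LPS-treated lung. The 250 bases before their transcript starts are shown because both genes rose in that group. They are RefSeq sequence of build GRCm38.p6, written 5′ to 3′ on the gene's strand, for Ptgs2 at chr1:150099781-150100030 (plus strand) and for Ptges at chr2:30903298-30903547 (minus strand). The Ptges window precedes its RefSeq start and lies inside the longer span of the GENCODE gene (chr2:30889471-30929863). Capitals mark the GC box GGGCGG and the C/EBP core TTGCG, on either strand.
Ptgs2: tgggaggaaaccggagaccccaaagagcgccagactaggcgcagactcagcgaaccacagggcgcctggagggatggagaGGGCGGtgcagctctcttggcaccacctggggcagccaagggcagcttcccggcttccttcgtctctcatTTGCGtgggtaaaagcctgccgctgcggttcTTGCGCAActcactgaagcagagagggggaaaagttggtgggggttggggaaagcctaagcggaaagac
Ptges: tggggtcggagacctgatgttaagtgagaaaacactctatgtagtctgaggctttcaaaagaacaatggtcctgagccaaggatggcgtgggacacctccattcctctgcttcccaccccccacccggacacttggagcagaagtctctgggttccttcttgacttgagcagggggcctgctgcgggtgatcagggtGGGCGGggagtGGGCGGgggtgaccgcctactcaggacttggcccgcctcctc

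A search of both strands of these windows for 9 short motifs found the GC box in both genes. In Ptgs2 it began 170 bases before the start, and in Ptges GC boxes began 53 and 42 bases before it. TTGCG was found in Ptgs2 alone, beginning 100 and 69 bases before the start, with a match on the minus strand overlapping the nearer one at 66 bases. The core GCGTG was in both windows, 98 bases before the start in Ptgs2, where it overlaps TTGCG, and 165 bases before it in Ptges. Of 32851 RefSeq promoter windows of the same length, 32.7% held GGGCGG, 14.5% held TTGCG and 28.2% held GCGTG. No match was found in either window to the NF-kB consensus (7.25% of windows), CGTCA (17.8%), CACGTG (6.02%), TATAAA (12.4%), TTCNNNTTC (18.1%) or TGANTCA (6.75%). These are letter matches in 1 window per gene and say nothing of binding. RefSeq promoter entries were matched for 7 of the 10 genes; Ptgis, Alox5ap and Alox15 were not among them.

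**Figure D1:**
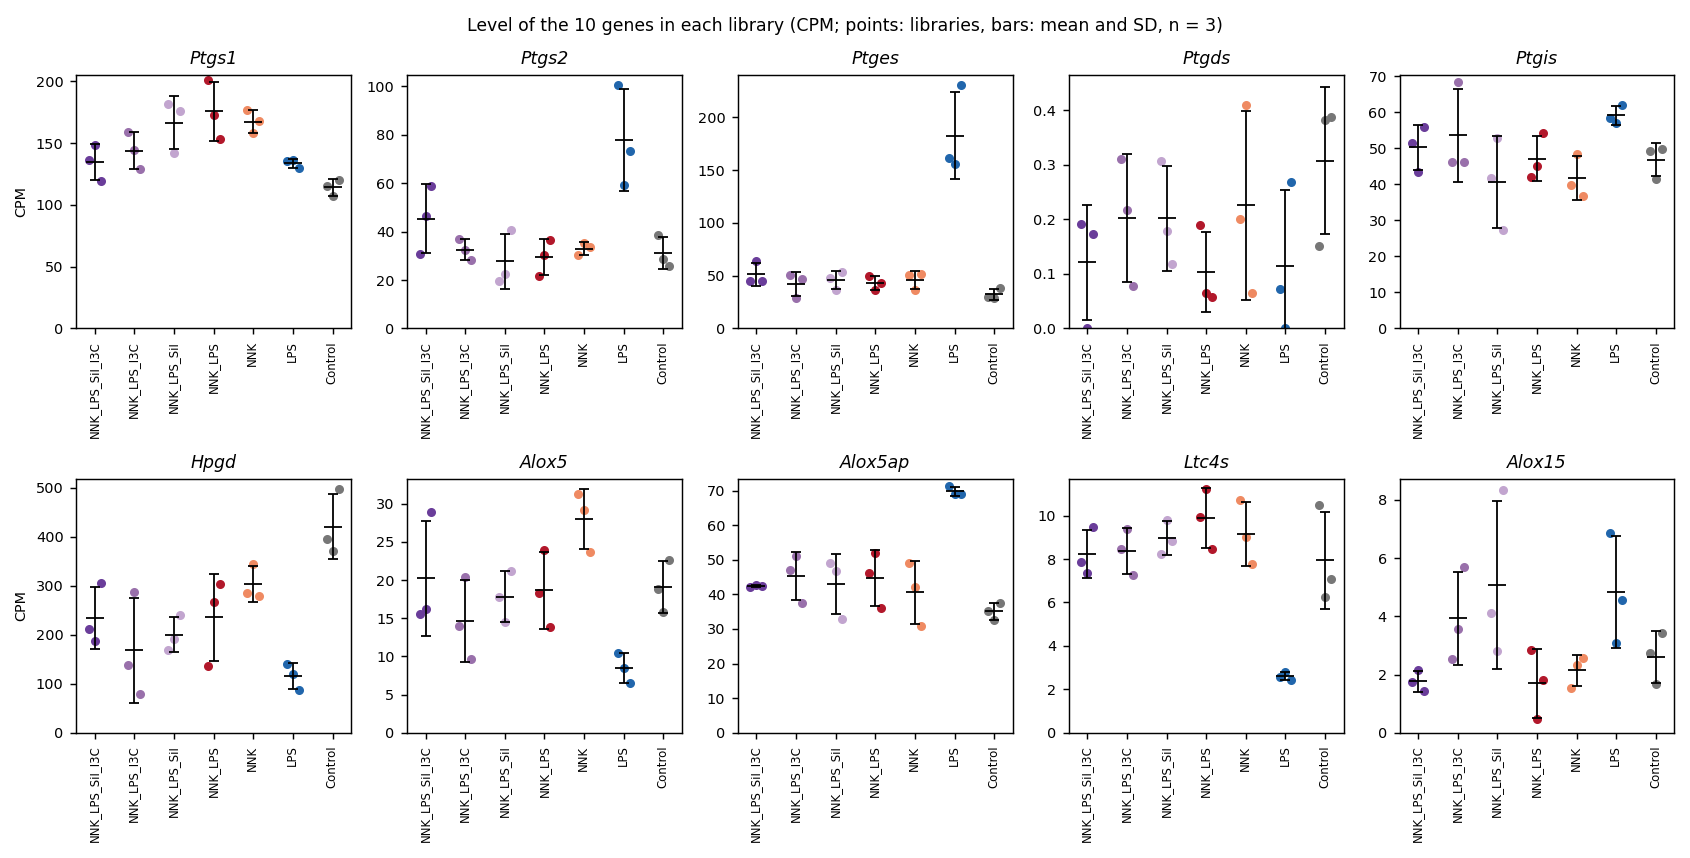
Level of each of the 10 genes in CPM (vertical axis, linear from 0) in the 7 groups (horizontal axis), with each point a library and the bar the mean ± SD of 3. Ptges, Ptgs2 and Alox5ap are highest in all 3 LPS libraries, Hpgd, Alox5 and Ltc4s have their lowest group mean there, and Ptgs1 has its lowest group mean in Control.

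Weekly LPS without NNK changed 6 of the 9 tested genes relative to Control, against a background of 50.0% of all tested genes called in this comparison. Ptgs2, Ptges and Alox5ap rose, and Hpgd, Alox5 and Ltc4s fell. By direction, 25.3% of all tested genes rose and 24.7% fell. The median log2 fold change was 0.34 over the 9 genes, against -0.02 over all tested genes.

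Ptges, the inducible prostaglandin E synthase, stood at 161.3, 156.3 and 230.5 CPM in LPS lungs, against 29.7, 28.4 and 38.5 CPM in Control lungs. All 3 LPS libraries lay far above all Control libraries, and above every library of the other 6 groups. The log2 fold change was 2.50 ± 0.24 (SE), a 5.67-fold rise with an interval of 4.00 to 8.05 at the 95% level (adjusted p = 4.25e-07). Over the 7 groups the order of mean levels was LPS (182.7 ± 41.4 CPM), NNK_LPS_Sil_I3C (51.3 ± 10.9), NNK (46.1 ± 8.46), NNK_LPS_Sil (46.1 ± 8.77), NNK_LPS (43.1 ± 7.01), NNK_LPS_I3C (41.9 ± 11.4) and Control (32.2 ± 5.52). From the second place down, each group overlapped the next.

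Ptgs2, the inducible cyclooxygenase, had 100.7, 59.4 and 73.5 CPM in LPS lungs, against 38.5, 28.9 and 26.0 CPM in Control lungs. LPS 1 was the highest of the 21 libraries, and the groups did not overlap. This was a log2 fold change of 1.32 ± 0.29 (adjusted p = 0.00111), or 2.50-fold. In the order of group means LPS (77.9 ± 21.0 CPM) was followed by NNK_LPS_Sil_I3C (45.4 ± 14.1), whose highest library lay just below the lowest LPS library. The other 5 groups lay between 27.7 ± 11.4 CPM in NNK_LPS_Sil and 33.0 ± 2.65 CPM in NNK and overlapped their neighbours.

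Ptgs1, the other cyclooxygenase, had 135.4, 136.3 and 129.8 CPM in LPS lungs, against 115.7, 106.9 and 120.5 CPM in Control lungs. The libraries did not overlap, but the log2 difference of 0.23 ± 0.11 was not called (adjusted p = 0.101). It was called when the 2 groups were fitted alone (adjusted p = 0.0181) and within the first library set (adjusted p = 0.0217). The ratio of Ptgs2 to Ptgs1 in CPM was 0.582 ± 0.155 in LPS lungs and 0.273 ± 0.0589 in Control lungs (SD, n = 3 each).

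Ptgis, the prostacyclin synthase, stood at 58.5, 56.9 and 62.0 CPM in LPS lungs, against 49.4, 41.5 and 49.7 CPM in Control lungs. Again all 3 LPS libraries were the higher ones, and again the log2 difference of 0.34 ± 0.20 was not called (adjusted p = 0.166). With the 2 groups fitted alone the adjusted p was 0.00905. Ptgis varied little over the 7 groups, between 40.7 ± 12.7 CPM in NNK_LPS_Sil and 59.1 ± 2.60 CPM in LPS, and each group overlapped the next in order. Its locus overlaps the antisense gene 1110018N20Rik, which had 72 counts summed over all libraries.

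Hpgd, the enzyme that starts prostaglandin breakdown, had 140.2, 119.7 and 86.7 CPM in LPS lungs, against 395.0, 370.1 and 496.1 CPM in Control lungs. All LPS libraries lay far below all Control libraries. The log2 fold change was -1.86 ± 0.38 (adjusted p = 0.000722), which leaves 0.275 of the Control level. Control had the highest mean of the 7 groups (420.4 ± 66.7 CPM) and did not overlap the next, NNK (302.6 ± 36.6). LPS had the lowest mean (115.5 ± 27.0), overlapping NNK_LPS_I3C (168.5 ± 107.1), where library 3 had 79.2 CPM.

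Expression of the prostaglandin E2 synthase and of the breakdown enzyme thus moved in opposite directions. The ratio of Ptges to Hpgd in CPM was 1.71 ± 0.829 in LPS lungs and 0.0765 ± 0.00131 in Control lungs. Its lowest LPS value, 1.15, was above the highest of any other group, 0.587 in NNK_LPS_I3C. Prostaglandins themselves were not measured.

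Ptgds, the lipocalin-type prostaglandin D synthase, had 0 to 6 counts per library and 65 in all 21 libraries, too few to be tested. Its mean level was between 0.104 ± 0.0738 CPM in NNK_LPS and 0.307 ± 0.135 CPM in Control. The 2 libraries at 0 were LPS 2, where a count of 0 allows up to 0.205 CPM, and NNK_LPS_Sil_I3C 2, where it allows up to 0.137 CPM; these limits cover counting error only.

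On the leukotriene branch, the 3 genes did not move together. Alox5ap, which presents arachidonic acid to the lipoxygenase, had 71.4, 69.0 and 69.2 CPM in LPS lungs, against 35.2, 32.7 and 37.4 CPM in Control lungs. The LPS libraries agreed closely and lay above every library of the other 6 groups. The log2 fold change was 0.99 ± 0.17 (adjusted p = 0.000122), or 1.99-fold. The 5 tumour groups lay between 40.7 ± 9.12 CPM in NNK and 45.2 ± 6.96 CPM in NNK_LPS_I3C and overlapped their neighbours.

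Alox5 itself stood at 10.4, 8.53 and 6.53 CPM in LPS lungs, against 18.9, 15.8 and 22.6 CPM in Control lungs. Every LPS library was below every Control library. Its log2 fold change was -1.17 ± 0.30 (adjusted p = 0.00378), or 0.444 of the Control level. NNK tumours had the highest mean of the 7 groups, 28.0 ± 3.94 CPM, and each group overlapped the next in order down to LPS (8.49 ± 1.93).

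Ltc4s, the leukotriene C4 synthase, had 2.58, 2.80 and 2.42 CPM in LPS lungs, against 10.5, 6.26 and 7.10 CPM in Control lungs. The LPS values were the 3 lowest of all 21 libraries. Its log2 fold change was -1.60 ± 0.20 (adjusted p = 4.62e-06), or 0.329 of the Control level. These were low counts, with 113 reads summed over the LPS libraries and 346 over the Control libraries. The other 6 groups lay between 7.94 ± 2.23 CPM in Control and 9.88 ± 1.37 CPM in NNK_LPS, each overlapping the next. Ltc4s overlaps the antisense gene Gm26542, which had 102 counts summed over all libraries, and the strand setting of the counting is not given in the sources used here.

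Within the leukotriene branch the ratios shifted as the single genes did. Alox5 over Alox5ap in CPM was 0.121 ± 0.0257 in LPS lungs and 0.542 ± 0.0597 in Control lungs. Ltc4s over Alox5ap was 0.0373 ± 0.00293 in LPS lungs and 0.226 ± 0.0617 in Control lungs.

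Alox15, the 12/15-lipoxygenase, had low counts, at 6.88, 3.07 and 4.58 CPM in LPS lungs, against 2.73, 1.66 and 3.42 CPM in Control lungs. The groups overlapped, and the log2 difference of 0.89 ± 0.50 was not called (adjusted p = 0.145). Its 7 group means, from 1.70 ± 1.19 CPM in NNK_LPS to 5.09 ± 2.89 CPM in NNK_LPS_Sil, all overlapped their neighbours in order.

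All 6 calls of LPS against Control held in each alternative that was run, including every fit without 1 of the 6 libraries. Within the first library set, where LPS has only libraries 1 and 2, the log2 fold changes were 1.38 for Ptgs2, 2.32 for Ptges, 1.01 for Alox5ap, -1.68 for Hpgd, -0.998 for Alox5 and -1.54 for Ltc4s, all called.

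Markers of several cell types moved in the same comparison. The summed CPM of 8 neutrophil markers was 831.5 to 1053 in LPS libraries and 36.5 to 102.1 in Control libraries, with 6 of 8 called higher. For 8 monocyte and interstitial macrophage markers the sum was 1169 to 1225 in LPS libraries and 345.0 to 409.3 in Control libraries, with 8 of 8 called higher. Markers of some resident cells were lower. The sum over 6 endothelial markers was 1403 to 1587 in LPS libraries and 3307 to 3505 in Control libraries (6 of 6 called lower). Over 9 alveolar macrophage markers it was 384.0 to 593.1 in LPS libraries and 688.1 to 874.4 in Control libraries (7 of 9 called lower). Over club cell markers it was 13269 to 17258 in LPS libraries and 35407 to 38643 in Control libraries (4 of 4 called lower). Called lower were also 4 of 6 alveolar type 2 markers, 6 of 6 of heart muscle and 3 of 3 of adipocytes. Of 5 alveolar type 1 markers 4 were called lower and 1 higher. The sum over 6 fibroblast markers was higher instead, at 2057 to 2887 in LPS libraries and 1464 to 1815 in Control libraries. Of these 6 markers, 3 were called higher and 2 lower. The 7 mast cell markers summed to 4.64 to 6.26 CPM in LPS libraries and 11.0 to 13.0 CPM in Control libraries, with 3 of the 4 tested called lower. Ltc4s is a gene known from mast cells and eosinophils. In NNK libraries the mast cell sum was 7.30 to 9.98 CPM, with 0 of 4 markers called against Control. Ltc4s stood at 9.16 ± 1.48 CPM in NNK and 7.94 ± 2.23 CPM in Control. The 5 eosinophil markers summed to 5.45 to 11.7 CPM in LPS libraries, where Ear6 was at 0, and 28.0 to 35.3 CPM in Control libraries, where Epx was at 0. They did not move 1 way: of 3 tested, Prg2 rose (log2 3.28 ± 0.83), Siglec5, which is also on the alveolar macrophage list and made up most of the sum, fell (log2 -2.19 ± 0.37), and Ccr3 was not called (log2 0.95 ± 0.55). The part of these cell types in the changes of the 10 genes was not tested, and in bulk tissue fewer cells of a type and less RNA per cell cannot be told apart.

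Levels were also compared per kb of exon, so that genes of different length can be set side by side. Hpgd then had the highest mean level of the 10 genes in both tissues. In LPS lungs it was at 68.7 ± 16.0 CPM per kb (SD), followed by Alox5ap at 51.9 ± 1.0, Ptges at 50.1 ± 11.4 and Ptgs1 at 46.7 ± 1.23. The spread of Hpgd and Ptges leaves the order of these LPS means unsettled. In Control lungs Hpgd was at 249.8 CPM per kb, followed by Ptgs1 at 39.9, Alox5ap at 26.1 and Ptgis at 20.5. Ptges stood above Ptgis (25.85 ± 1.14) in LPS lungs, but above Ptgs1 only in the mean and not beyond its spread. In Control lungs, at 8.83 CPM per kb, Ptges stood below both.

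**Figure D2:**
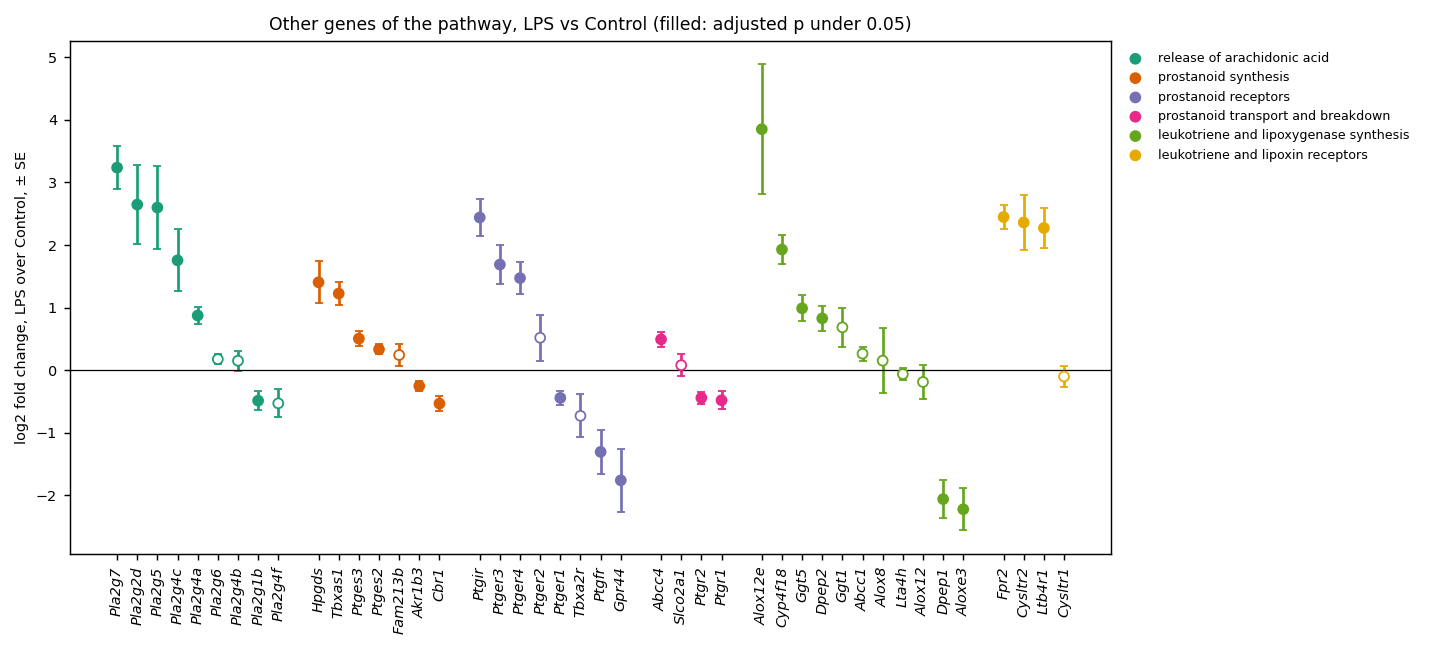
Log2 fold change ± SE of LPS over Control (vertical axis) for the 43 other tested genes of the pathway, grouped by role and ordered by fold change within a role (horizontal axis). Filled points were called at an adjusted p under 0.05, 20 of them above 0 and 10 below; the leukotriene and lipoxin receptors hold 3 called genes, all above 0.

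Of 47 other genes of the pathway, 43 were tested and 30 were called in LPS against Control, 20 higher and 10 lower. Their median log2 fold change was 0.33, against -0.02 over all tested genes, and their share called has to be read against the 50.0% background. Among genes that release arachidonic acid or related lipids 5 rose and 1 fell of 9, led by Pla2g7, the platelet-activating factor acetylhydrolase, at 176.4 ± 14.4 CPM in LPS lungs and 18.7 ± 5.05 CPM in Control lungs (log2 3.24 ± 0.35, adjusted p = 1.58e-06). Of the 7 other prostanoid synthesis genes 4 rose and 2 fell. Among them Tbxas1, the thromboxane synthase, rose by 1.23 ± 0.18 (adjusted p = 2.97e-05). Prostanoid receptors were split with 3 higher and 3 lower of 8, and Ptgir, the prostacyclin receptor, had 24.9 ± 4.03 CPM in LPS lungs and 4.56 ± 0.991 CPM in Control lungs (log2 2.44 ± 0.29, adjusted p = 4.23e-06). Of 4 transport and breakdown genes 1 rose and 2 fell. Of the 11 other genes of leukotriene and lipoxygenase synthesis 4 rose and 2 fell, including Cyp4f18, which degrades leukotriene B4 in mouse neutrophils, at 1.93 ± 0.24 (adjusted p = 4.38e-06). Receptors of leukotrienes and lipoxins were called higher in 3 of 4 cases, among them Ltb4r1, the leukotriene B4 receptor, at 2.27 ± 0.32 (adjusted p = 1.79e-05) and Fpr2, which binds lipoxins and formyl peptides, at 2.45 ± 0.20 (adjusted p = 6.6e-08). Fpr2, Ltb4r1 and Cyp4f18 are genes known from neutrophils, whose markers were higher in these libraries as given above. The part of neutrophils or other cells in these rises was not tested.

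NNK tumours were compared with Control lung next, within 1 library set. Of the 9 tested genes 1 was called, Ptgs1, which rose, where 13.1% of all tested genes were called and 6.46% rose. Ptgs1 had 176.7, 157.9 and 167.7 CPM in NNK tumours, against 115.7, 106.9 and 120.5 CPM in Control lungs. All tumour libraries lay above all Control libraries. The log2 fold change was 0.55 ± 0.11 (adjusted p = 0.00727), or 1.46-fold with a 95% interval of 1.24 to 1.72. Over the 7 groups the mean of Ptgs1 was highest in NNK_LPS (175.7 ± 24.0 CPM), NNK (167.5 ± 9.36) and NNK_LPS_Sil (166.5 ± 21.6), then in NNK_LPS_I3C (143.9 ± 15.0), NNK_LPS_Sil_I3C (134.7 ± 14.9) and LPS (133.8 ± 3.54), each overlapping the next, and Control (114.4 ± 6.86) lay below LPS without overlap.

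Other genes differed without being called. Alox5 had 31.3, 29.2 and 23.7 CPM in NNK tumours, against 18.9, 15.8 and 22.6 CPM in Control lungs (log2 0.55 ± 0.29, adjusted p = 0.202). Hpgd had 284.5, 344.7 and 278.5 CPM in NNK tumours, against 395.0, 370.1 and 496.1 CPM in Control lungs (log2 -0.47 ± 0.37, adjusted p = 0.405). Neither gene's groups overlapped, and both were called when NNK and Control were fitted alone (adjusted p = 0.0397 for Alox5 and 0.0458 for Hpgd). Ptges had 50.8, 36.4 and 51.2 CPM in NNK tumours, against 29.7, 28.4 and 38.5 CPM in Control lungs, with overlap (log2 0.52 ± 0.23, adjusted p = 0.143). Within the first library set, all 3 of these genes passed beside Ptgs1 (adjusted p = 0.0462 for Ptges, 0.037 for Hpgd and 0.032 for Alox5). The fold changes themselves hardly moved between the fits. The other 5 tested genes had log2 differences between -0.28 (Alox15) and 0.21 (Alox5ap).

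In the same comparison the summed markers of alveolar type 2 cells were 41766 to 49454 CPM in NNK libraries and 29061 to 34745 CPM in Control libraries, with 4 of 6 called higher. Heart muscle markers summed to 105.0 to 226.2 CPM in NNK libraries and 463.8 to 498.5 CPM in Control libraries, with 6 of 6 called lower. Neutrophil markers were spread from 82.0 to 578.1 CPM over NNK libraries and from 36.5 to 102.1 CPM over Control libraries, with 6 of 8 called higher and NNK 3 inside the Control range. Their part in the level of Ptgs1 was not tested. Of the 43 other pathway genes 5 rose and 1 fell. Ptgir rose by 0.93 ± 0.30, Cyp4f18 by 0.89 ± 0.24, Ggt5, which trims leukotriene C4, by 0.79 ± 0.21, Abcc4, a prostaglandin exporter, by 0.57 ± 0.12 and Pla2g6 by 0.33 ± 0.08. Akr1b3, an aldose reductase that can make prostaglandin F, fell by 0.43 on the log2 scale.

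**Figure D3:**
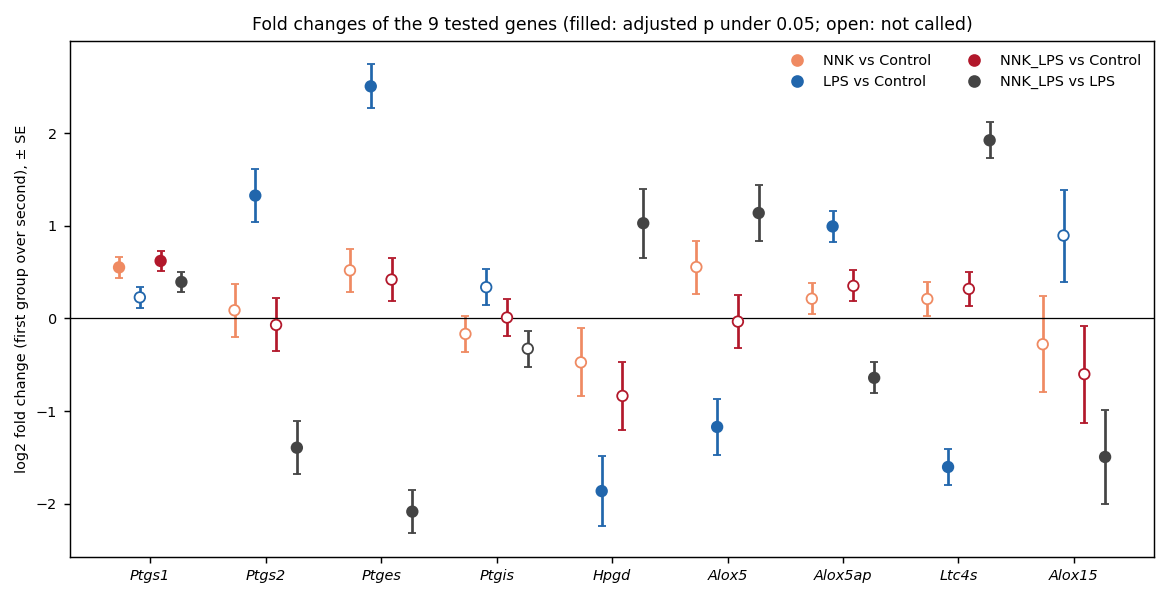
Log2 fold change ± SE (vertical axis, first-named group over second) of the 9 tested genes in 4 comparisons. Filled points were called at an adjusted p under 0.05: Ptgs1 alone in NNK and in NNK_LPS against Control, 6 genes in LPS against Control, and 8 genes in NNK_LPS against LPS.

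Tumours of mice that received both NNK and LPS were compared with Control, NNK and LPS in turn. Against Control, 1 of the 9 genes was called, with a background of 24.6% (12.0% higher), and it was again Ptgs1, at 200.8, 173.2 and 153.1 CPM in NNK_LPS tumours, against 115.7, 106.9 and 120.5 CPM in Control lungs. The groups did not overlap, and the log2 fold change was 0.62 ± 0.11 (adjusted p = 0.00126). With library set as a term it was 0.69 and no longer called (adjusted p = 0.125), and set and group cannot be told apart here. Hpgd, at 135.4, 267.2 and 303.4 CPM in NNK_LPS tumours, was below every Control library without being called (log2 -0.84 ± 0.37, adjusted p = 0.106). With library set as a term the log2 difference of Hpgd was -0.25 ± 0.67. The other 7 tested genes differed from Control by log2 -0.60 (Alox15) to 0.42 (Ptges, -0.12 ± 0.37 with the set term), without a call. Among them Alox5ap was called without NNK_LPS 3 (log2 0.53, adjusted p = 0.0312) and Ltc4s without Control 1 (log2 0.61, adjusted p = 0.0303). Cell type markers moved here too. Those of monocytes and interstitial macrophages summed to 478.3 to 616.6 CPM in NNK_LPS libraries and 345.0 to 409.3 CPM in Control libraries (5 of 8 called higher), and those of alveolar type 2 cells to 46819 to 64784 CPM in NNK_LPS libraries and 29061 to 34745 CPM in Control libraries (5 of 6 higher). Lower were markers of endothelium, at 1446 to 2462 CPM in NNK_LPS libraries and 3307 to 3505 CPM in Control libraries (5 of 6), of club cells, at 16196 to 24540 CPM in NNK_LPS libraries and 35407 to 38643 CPM in Control libraries (4 of 4), and of heart muscle, at 76.2 to 142.0 CPM in NNK_LPS libraries and 463.8 to 498.5 CPM in Control libraries (6 of 6). Their part in these differences was not tested.

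Of the other pathway genes 8 rose and 4 fell against Control. Pla2g2d, a secreted phospholipase, had 27.0 ± 6.28 CPM in NNK_LPS tumours and 2.67 ± 0.275 CPM in Control lungs (log2 3.34 ± 0.62). Ptgir, the prostacyclin receptor, had 21.8 ± 2.48 CPM in NNK_LPS tumours and 4.56 ± 0.991 CPM in Control lungs (log2 2.25 ± 0.29). Pla2g1b rose by 1.04 ± 0.15, Dpep2 and Ggt5, which convert leukotriene C4 and D4 onward, by 0.95 ± 0.20 and 0.94 ± 0.21, and Pla2g6 by 0.39 ± 0.08. The synthase of its ligand, Ptgis, stood at 47.1 ± 6.31 CPM in NNK_LPS tumours and 46.9 ± 4.65 CPM in Control lungs, where its receptor Ptgir differed as given above. NNK_LPS and Control share no library set. Over all tested genes 24 were called with library set as a term, against 3876 without it. Whether the calls of these other pathway genes hold with that term is not given here.

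NNK_LPS tumours against NNK tumours asked what LPS did once NNK had been given. Of the 9 tested genes 0 were called by edgeR, with 0 at an unadjusted p under 0.05, and DESeq2 called 0, with 1 at an unadjusted p under 0.05. Over all tested genes 0.0951% were called, or 15. The largest difference among the 9 was that of Alox5, at 18.3, 23.9 and 13.8 CPM in NNK_LPS tumours, against 31.3, 29.2 and 23.7 CPM in NNK tumours. NNK_LPS 2 lay just above NNK 3, and the log2 difference was -0.59 ± 0.28 (adjusted p = 0.323). For Ptges the 95% interval of the log2 difference ran from -0.58 to 0.39, and for Ptgs2 from -0.76 to 0.45. Both intervals lay below the log2 rises estimated in LPS lung, 2.50 for Ptges and 1.32 for Ptgs2, which have errors of their own. With library set as a term the log2 differences were -0.64 ± 0.37 for Ptges, -0.03 ± 0.53 for Ptgs2 and -0.05 ± 0.56 for Alox5, with wider errors. Of the 43 other pathway genes 0 were called by edgeR (9 at an unadjusted p under 0.05) and 3 by DESeq2 (11 at an unadjusted p under 0.05). The 2 groups share no library set.

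Set against LPS lung, NNK_LPS tumours differed in 8 of the 9 tested genes, 4 higher and 4 lower, where 38.2% of all tested genes were called, 17.3% higher and 20.9% lower. Ptges had 50.2, 36.1 and 42.9 CPM in NNK_LPS tumours, against 161.3, 156.3 and 230.5 CPM in LPS lungs (log2 -2.09 ± 0.23, adjusted p = 4.75e-06). Ptgs2 had 21.7, 30.4 and 36.6 CPM in NNK_LPS tumours, against 100.7, 59.4 and 73.5 CPM in LPS lungs (log2 -1.40 ± 0.29, adjusted p = 0.0011). Ltc4s had 9.94, 11.2 and 8.48 CPM in NNK_LPS tumours, against 2.58, 2.80 and 2.42 CPM in LPS lungs (log2 1.92 ± 0.20, adjusted p = 1.5e-06). None of these 3 genes overlapped between the groups.

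Alox5 was higher in NNK_LPS tumours by 1.14 ± 0.30 (adjusted p = 0.00643) and Ptgs1 by 0.39 ± 0.11 (adjusted p = 0.00999), each without overlap. Alox5ap was lower, also without overlap (log2 -0.64 ± 0.17, adjusted p = 0.00568). Hpgd was higher by 1.03 ± 0.37 (adjusted p = 0.0384), although NNK_LPS 1, at 135.4 CPM, lay below LPS 1. Alox15 had 2.83, 0.459 and 1.82 CPM in NNK_LPS tumours, against 6.88, 3.07 and 4.58 CPM in LPS lungs (log2 -1.495 ± 0.51, adjusted p = 0.0282). The call of Hpgd was lost without LPS 2 (adjusted p = 0.0706), LPS 3 (0.134), NNK_LPS 2 (0.101) or NNK_LPS 3 (0.128), and that of Alox15 without LPS 1 (0.126), LPS 3 (0.0558), NNK_LPS 2 (0.112) or NNK_LPS 3 (0.0623). Hpgd was also not called with no filter on low counts (0.0653), nor Alox15 with the compared groups alone in the fit (0.0827). With library set as a term 4 of the 8 calls were left, those of Ptges, Ptgs2, Alox5 and Ltc4s. The 4 genes that lost the call had log2 differences of 0.44 ± 0.16 for Ptgs1, 1.44 ± 0.58 for Hpgd, -0.63 ± 0.24 for Alox5ap and -1.42 ± 0.69 for Alox15, with larger standard errors than before. Within the middle set Ptges, Alox5 and Ltc4s passed, but its LPS arm is 1 library, LPS 3, which is assumed to vary like the libraries of the other groups. In this comparison neutrophil markers summed to 54.2 to 224.8 CPM in NNK_LPS libraries and 831.5 to 1053 CPM in LPS libraries (4 of 8 called lower), and alveolar macrophage markers to 971.2 to 1639 CPM in NNK_LPS libraries and 384.0 to 593.1 CPM in LPS libraries (8 of 9 called higher). Their part was not tested.

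Among other pathway genes 8 were higher and 15 lower in NNK_LPS tumours than in LPS lungs. Pla2g1b (log2 1.53 ± 0.15) and Aloxe3, an epidermis-type lipoxygenase (2.30 ± 0.33), were higher. Fpr2 (-1.94 ± 0.19), Pla2g7 (-2.24 ± 0.33), Pla2g4a, the cytosolic phospholipase that releases arachidonic acid (-1.16 ± 0.14), and Ptger3, a prostaglandin E2 receptor (-2.04 ± 0.31), were lower.

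**Figure D4:**
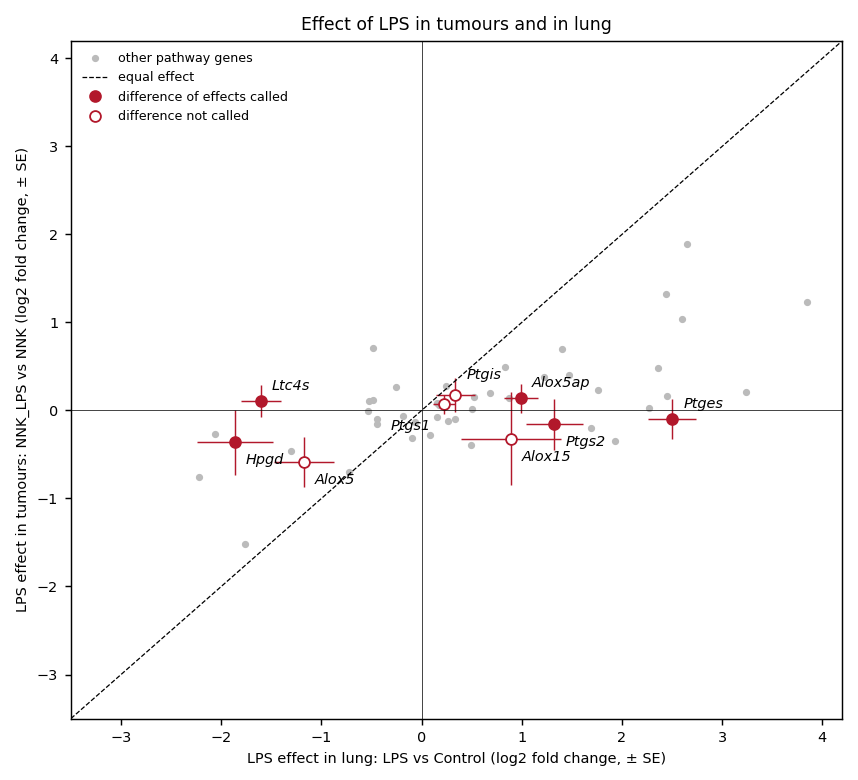
Log2 fold change of NNK_LPS over NNK (vertical axis, LPS effect in tumours) against that of LPS over Control (horizontal axis, LPS effect in lung), ± SE, for the 9 tested genes (red) and the other pathway genes (grey), with a dashed line of equal effects. The 5 filled genes, whose difference of effects was called, lie near 0 on the vertical axis and away from 0 on the horizontal axis.

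The difference between the LPS effects was tested as an interaction, the effect in tumours minus that in lung. It was called for 5 of the 9 genes, 2 higher and 3 lower, against 25.1% of all tested genes (10.7% higher and 14.4% lower). For Ptges it was -2.60 ± 0.33 (adjusted p = 3.86e-05), made up of a log2 effect of -0.10 in tumours and 2.50 in lung. For Ltc4s it was 1.71 ± 0.27 (adjusted p = 0.000204), from 0.11 in tumours and -1.60 in lung. The inducible cyclooxygenase Ptgs2 had a difference of -1.48 ± 0.40 (adjusted p = 0.013) and Alox5ap one of -0.85 ± 0.24 (adjusted p = 0.0138). Hpgd had a difference of 1.501 ± 0.52 (adjusted p = 0.045), which was not called without any 1 of 10 of the 12 libraries (all but LPS 1 and NNK_LPS 1). For Alox5 the difference was 0.58 ± 0.41 (adjusted p = 0.323) and for Alox15 -1.22 ± 0.73 (adjusted p = 0.239), neither called. With library set as a term Ptges (-2.94 ± 0.35, adjusted p = 8.83e-05) and Ltc4s (1.81 ± 0.37, adjusted p = 0.00336) were called. Ptgs2 (-1.40 ± 0.50, adjusted p = 0.0648), Alox5ap (-0.84 ± 0.30, adjusted p = 0.0645) and Hpgd (1.91 ± 0.69, adjusted p = 0.0655) were not, with wider errors around differences of similar or larger size. The call of Hpgd also ended with no filter on low counts (adjusted p = 0.0805).

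Of the 43 other pathway genes 20 had a called difference, 6 higher and 14 lower. The receptors Fpr2 (-2.28 ± 0.27) and Ltb4r1 (-2.25 ± 0.45) were among those lower, as were Cyp4f18 (-2.27 ± 0.33), Pla2g7 (-3.02 ± 0.47) and Abcc4 (-0.88 ± 0.16). Pla2g1b was higher (1.20 ± 0.21). Neutrophil markers had a called lower difference in 7 of 8 cases. Their part in these differences was not tested.

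**Figure D5:**
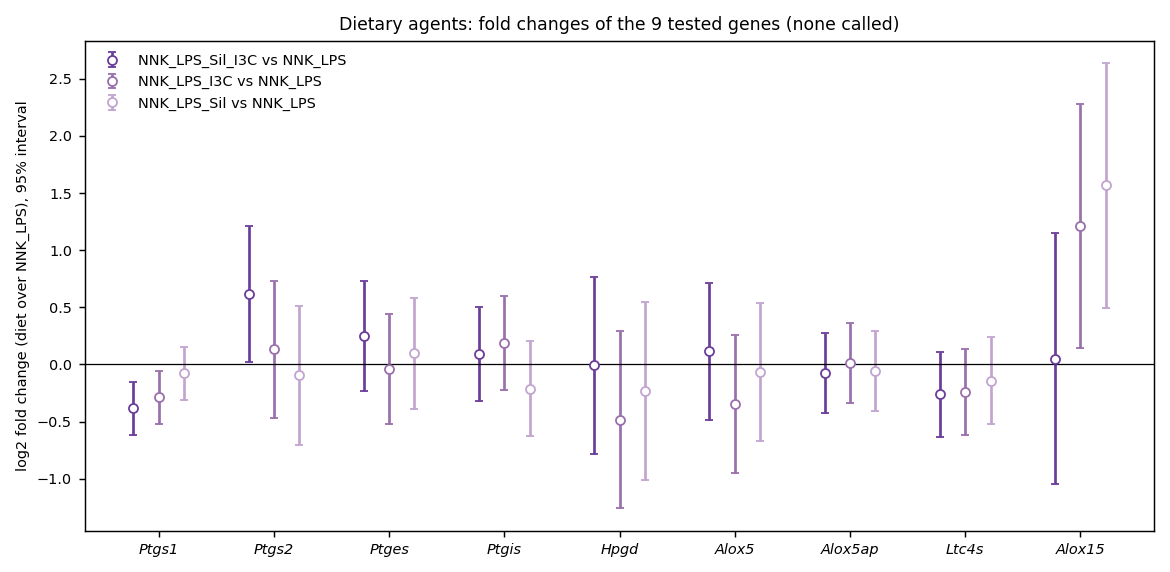
Log2 fold change of each dietary group over NNK_LPS (vertical axis) with its 95% interval for the 9 tested genes (horizontal axis). No point was called; the intervals of Alox15, the gene with the lowest counts, are the widest.

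The dietary agents were compared with NNK_LPS. With silibinin 0 of the 9 genes were called by edgeR (1 at an unadjusted p under 0.05) and 0 by DESeq2 (1 unadjusted). Over all tested genes edgeR called 0% (578 genes at an unadjusted p under 0.05) and DESeq2 called 0. The gene at an unadjusted p under 0.05 was Alox15, at 4.12, 2.81 and 8.33 CPM in NNK_LPS_Sil tumours, against 2.83, 0.459 and 1.82 CPM in NNK_LPS tumours. NNK_LPS_Sil 3 was the highest and NNK_LPS 2 the lowest, and the groups just overlapped. The log2 difference was 1.57 ± 0.51 with an interval of 0.50 to 2.64 (edgeR adjusted p = 1). NNK_LPS_Sil 3 also had an alveolar macrophage marker sum of 4403 CPM, where the other 2 libraries of its group had 1252 and 1353 CPM. For the other 8 genes the silibinin difference was within -0.23 (Hpgd) and 0.10 (Ptges) on the log2 scale. The interval was -0.31 to 0.16 for Ptgs1 and -0.70 to 0.51 for Ptgs2.

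With indole-3-carbinol 2.02% of all tested genes were called and 0 of the 9 (2 at an unadjusted p under 0.05 in edgeR; DESeq2 0, with 2 unadjusted). Ptgs1 had 158.7, 144.3 and 128.8 CPM in NNK_LPS_I3C tumours, against 200.8, 173.2 and 153.1 CPM in NNK_LPS tumours (log2 -0.29 ± 0.11, adjusted p = 0.149). Alox15 had 2.55, 3.56 and 5.69 CPM in NNK_LPS_I3C tumours, against 2.83, 0.459 and 1.82 CPM in NNK_LPS tumours (log2 1.21 ± 0.51, adjusted p = 0.185). Both genes overlapped between the groups. NNK_LPS_I3C 2 and NNK_LPS_I3C 3 are in the last library set, whereas all NNK_LPS libraries are in the middle set. With library set as a term the log2 differences were -0.15 ± 0.16 for Ptgs1 and 0.57 ± 0.73 for Alox15. That fit called 60 of all tested genes, against 318 without the term. Hpgd was spread from 79.2 to 287.2 CPM over the NNK_LPS_I3C libraries, so that its interval of -1.26 to 0.30 left much unresolved.

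With both agents 1.36% of all tested genes were called and 0 of the 9 by edgeR (2 at an unadjusted p under 0.05). Ptgs1 had 136.5, 148.6 and 119.0 CPM in NNK_LPS_Sil_I3C tumours, against 200.8, 173.2 and 153.1 CPM in NNK_LPS tumours. The groups did not overlap, and the log2 difference was -0.38 ± 0.11 with an interval of -0.62 to -0.15 (adjusted p = 0.095). DESeq2 called it (log2 -0.39, adjusted p = 0.0287), and edgeR called it without NNK_LPS 3 (log2 -0.50, adjusted p = 0.0207). With library set as a term in edgeR the log2 difference of Ptgs1 was -0.17 ± 0.20 and not called (adjusted p = 0.872). Ptgs2 had 30.7, 46.5 and 59.0 CPM in NNK_LPS_Sil_I3C tumours, against 21.7, 30.4 and 36.6 CPM in NNK_LPS tumours, with overlap (log2 0.62 ± 0.28, adjusted p = 0.29). The groups share no library set, and set and diet cannot be told apart here.

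Among the 43 other pathway genes the diets left few calls. Indole-3-carbinol gave 2 (4.65%, where 2.02% of all tested genes were called). Both agents gave 1 (2.33%, where 1.36% of all tested genes were called). Silibinin gave 0 (1 at an unadjusted p under 0.05 in edgeR; DESeq2 0, with 1 unadjusted). With indole-3-carbinol Abcc1, an exporter of leukotriene C4, had 79.3 ± 6.53 CPM in NNK_LPS_I3C tumours and 54.8 ± 7.01 CPM in NNK_LPS tumours (log2 0.53 ± 0.11), and Pla2g1b had 18.9 ± 1.17 CPM in NNK_LPS_I3C tumours and 28.5 ± 1.97 CPM in NNK_LPS tumours (log2 -0.59 ± 0.14). With both agents Cbr1, a carbonyl reductase that acts on prostaglandin E2, had 54.0 ± 3.59 CPM in NNK_LPS_Sil_I3C tumours and 37.4 ± 5.69 CPM in NNK_LPS tumours (log2 0.53 ± 0.12). In NNK_LPS_I3C libraries heart muscle markers summed to 338.8 to 486.9 CPM, against 76.2 to 142.0 CPM in NNK_LPS libraries, with 6 of 6 called higher. Alveolar type 2 markers summed to 34354 to 35605 CPM in NNK_LPS_Sil_I3C libraries (2 of 6 called lower) and 35149 to 36394 CPM in NNK_LPS_I3C libraries (3 of 6 called lower), against 46819 to 64784 CPM in NNK_LPS libraries. The part of these markers in the differences of Ptgs1, Cbr1, Abcc1 and Pla2g1b was not tested. Library set also differed between these diet groups and NNK_LPS, as given above. Whether the calls of Abcc1, Pla2g1b and Cbr1 hold with library set as a term is not given here.

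The genes whose log2 CPM followed each member most closely over the 21 libraries were sought among 13473 genes. These correlations are descriptions over libraries that share groups, tissue and library sets, and the closest of many genes is always close. For Ptges they were Actr3 (Pearson's r = 0.971), Rnaset2a (0.966) and Ppa1 (0.962), for Hpgd Myzap (0.971), Gpr116 (0.959) and Slc16a9 (0.958), and for Ltc4s Deptor (0.960), Sort1 (0.955) and Net1 (0.955). On the leukotriene side Alox5ap was closest to Lilra6 (0.945), Apobr (0.942) and Pira2 (0.931), and Alox5 to Coro2b (0.938), Cpne5 (0.920) and Cdc42bpa (0.914). Ptgs1 was closest to Stk39 (0.934), Adam19 (0.903) and Dusp4 (0.902). Looser likeness was found for Ptgs2, with Usp25 (0.892), Glipr2 (0.858) and Rnf114 (0.856), for Ptgis, with Mst1r (0.828), Upk1b (0.811) and Dkk3 (0.808), and for Alox15, with Itln1 (0.801), Fcgbp (0.737) and Erich2 (0.734). No gene appeared for more than 1 member.

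By GENCODE M21 on build GRCm38 the 10 genes lie at scattered places, apart from 4 on chromosome 2. These are Ptgds (chr2:25466709-25470046, minus strand), Ptges (chr2:30889471-30929863, minus), Ptgs1 (chr2:36230426-36252272, plus) and Ptgis (chr2:167191805-167240604, minus). Ptgs2 is at chr1:150100031-150108227 (plus), Alox5ap at chr5:149264767-149288153 (plus), Alox5 at chr6:116410077-116461178 (minus) and Hpgd at chr8:56294585-56321043 (plus). Ltc4s (chr11:50236461-50238616, minus) and Alox15 (chr11:70344152-70352031, minus) are both on chromosome 11. All 10 are annotated as protein-coding.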

How the data were processed

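The authors deposited a table of whole-number counts per gene symbol for 21 libraries, read per the file headers and used as deposited. Per the labels' protocols the kit was TruSeq RNA, version 2; per the submitters' processing notes the build was mm10. An aligner, counter, annotation and strand setting were not given in the sources used here. Of 38924 symbols, 16756 had 0 counts. Replicate libraries differed by more than counting noise (chi-square per degree of freedom 5.06 to 57.3).

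Tests used edgeR 4.0.16 in R 4.3.3 (trimmed mean of M-values, filterByExpr with a minimum count of 10, robust quasi-likelihood fit of 7 groups, 14 residual degrees of freedom), which was tested on simulated data. Promoters came from RefSeq, gene models from GENCODE M21. Log2 CPM for correlations used a prior count of 2. Deviations of same-numbered libraries correlated over 0.1 in all 3 pairs of NNK_LPS_I3C with NNK_LPS (0.158 to 0.276) among the groups compared, and in no other compared pair of groups; the replicate block changed no member call there. The members and lists were chosen with earlier results of these data known. Named other pathway genes were the 6 called with the smallest adjusted p per comparison; all members were described, and the 3 genes most like each member. Alternatives were relative log expression size factors, no filter, DESeq2 1.42.0, compared groups alone, replicate block, library set as a term and leaving out each library; the fits within 1 library set were added after seeing the data.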

Additional observations from a re-analysis of the deposited data

Results flagged for a closer look

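For 5 of the 9 tested genes the effect of LPS differed between tumours (NNK_LPS against NNK) and lung (LPS against Control) by a test of the difference itself, the interaction in edgeR's quasi-likelihood fit. On the log2 scale, as tumours minus lung, the differences were -1.48 for Ptgs2 (adjusted p = 0.013), -2.60 for Ptges (adjusted p = 3.86e-05), 1.501 for Hpgd (adjusted p = 0.045), -0.85 for Alox5ap (adjusted p = 0.0138) and 1.71 for Ltc4s (adjusted p = 0.000204). NNK_LPS and NNK share no library set, and with library set as a term the calls of Ptges and Ltc4s were the 2 that were left.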

How the results depend on the processing

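Of 21 called member fold changes, 297 values under alternatives were computed; 36 lost the call and 0 changed sign. Of 774 values of uncalled ones, 12 gained a call and 58 changed sign. Members called against Control in LPS were 6 without any 1 library (6 to 6) and 7 within the first library set. With the compared groups alone, Ptgs1 (adjusted p = 0.0181 in edgeR) and Ptgis (adjusted p = 0.00905) were called as well. For NNK against Control the count was 1, 3 with the compared groups alone and 4 in the first set, and 1 to 1 without any 1 library. For these 2 comparisons, the share of all tested genes called in the fits alone and in the first set is not given here. Those member counts thus have no background beside them. For NNK_LPS against Control it was 1, 0 with library set as a term, and 1 to 2 without any 1 library; against LPS it was 8, 4 with the set term, 3 in the middle set (where LPS is 1 library, assumed to vary like the other groups) and 6 to 8 without any 1 library; for the interaction it was 5, 2 with the set term and 4 to 5 without any 1 library. With both diets it was 0, 1 in DESeq2 and 0 to 1 without any 1 library. The causes were not tested.

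The replicate numbers of the sample descriptions did not pair the libraries in general: of 63 same-number pairs 17 correlated over 0.1 (-0.358 to 0.463), and 11 of 21 libraries correlated best with their own number. Under the replicate block 6 members were called in LPS against Control, 7 in NNK_LPS against LPS and 4 in the interaction; Hpgd lost its call in the last 2 (adjusted p = 0.0548 and 0.0577).

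Counts over all tested genes moved more. They were 2064 for NNK against Control and 404 to 1840 without any 1 library, lowest without Control 2. For NNK_LPS against Control they were 3876, 24 with the set term and 2227 to 4359 without any 1 library. NNK_LPS against NNK gave 15, 474 in DESeq2, 37 with the replicate block, 0 with the set term and 0 to 223 without any 1 library. NNK_LPS against LPS gave 6024, 3979 with the set term and 1836 in the middle set. With I3C the count was 318, 1042 in DESeq2, 5 with the compared groups alone, 60 with the set term, 0 in the middle set and 21 to 794 without any 1 library. With both diets it was 214, 658 in DESeq2, 13 with the compared groups alone, 2 with the set term and 30 to 816 without any 1 library.

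Changing the scaling to relative log expression moved no member level by 1 SD (largest shift 0.979%). Depth limits Ptgds, with 65 counts in all.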
